A study of Mus musculus with 221 samples.

Results

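Among early 2-cell embryos sired by males on a high fat diet (HFD), 10 stood apart from the rest by the summed level of 4 macrophage transcripts. In HFD-96, none of 12 other macrophage markers lay above the other HFD embryos. These embryos were selected on 4 transcripts of the same libraries: the counts of Lyz2, Ctss, Tyrobp and C1qc were summed and divided by all counts of the embryo, and an embryo was a member when the sum came to 50 or more per 1000000 counts (written CPM below). The 10 members were HFD-24, HFD-41, HFD-44, HFD-45, HFD-59, HFD-71, HFD-80, HFD-82, HFD-96 and HFD-123, and they made up 8.2% of the HFD embryos (exact 95% binomial interval 4.0 to 14.6%) and 4.52% of all embryos. The other 211 embryos lay below 50 CPM, and 99 of them were sired by males on a low fat diet (LFD) and the rest by HFD males. No LFD embryo reached 50 CPM, and 0 of 99 allows a share of up to 3.03%. This interval and this limit cover counting error over embryos only and take no account of the sire, which the labels do not give. The reads carry no molecular identifiers, so counts include PCR copies.

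Each library was made from 1 embryo by Smart-seq2, a full-length single-cell RNA-seq method, and the values used here are read counts per gene. The embryos came from in vitro fertilisation of oocytes with thawed sperm of C57BL/6N males that had been fed HFD or LFD for 2 weeks, with 4 males per diet according to the methods of the study. The oocytes came from superovulated females whose nuclear genome is C57BL/6N and whose mitochondrial DNA is of the Staudach type, so every embryo of either diet shared this maternal background. The groups differed by the diet of the father. According to the methods, embryos also differed by individual male, fertilisation date and sex. Cumulus-oocyte complexes were taken from the oviduct ampulla before fertilisation, and the embryo was lysed whole, so a library holds the RNA of whatever entered the tube with the embryo. In such a bulk library, fewer cells of a type and less RNA per cell cannot be told apart.

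Macrophages are phagocytes of the innate immune system that live in nearly every tissue, the ovary and oviduct included. They bind debris and opsonised particles through Fc, complement and lectin receptors, carry them into lysosomes rich in cathepsins and other hydrolases, and export the lipid they recover by way of apolipoprotein E. Lyz2 encodes lysozyme, Ctss a lysosomal cysteine protease, Tyrobp the signalling adaptor of many myeloid receptors, and C1qc a chain of the complement component C1q, which in adult tissue is made mostly by macrophages.

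The 10 members were sequenced to between 2296020 and 13155271 counts (median 5374878), the HFD embryos below 50 CPM to a median of 5746346 and the LFD embryos to a median of 5701723. Members had between 17696 and 21638 genes with a count. Embryo numbers are the only ordering in the labels, and no date, plate or sire is given. The members fell in 7 of 13 ranges of 10 consecutive numbers, with at most 3 of them in a range.

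The sum of the 4 transcripts was 2824 CPM in HFD-41, 1960 in HFD-123, 1770 in HFD-59, 1567 in HFD-71 and 1489 in HFD-44. It was 813 CPM in HFD-24, 800 in HFD-45 and 759 in HFD-80, and then fell to 182 CPM in HFD-82 and 57.2 in HFD-96. The levels thus covered a wide range, with 8 embryos at 759 CPM or more, HFD-82 lower, and HFD-96 just inside the limit. Just outside it stood HFD-53, HFD-57 and HFD-28 at 23.3, 20.6 and 20.1 CPM, and the highest LFD embryo at 17.6 CPM. The median was 1.5 CPM in the HFD embryos below 50 and 1.95 CPM in the LFD embryos, and 0 HFD embryos lay between 25 and 50 CPM. These values chose the members and carry no test.

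**Figure D1:**
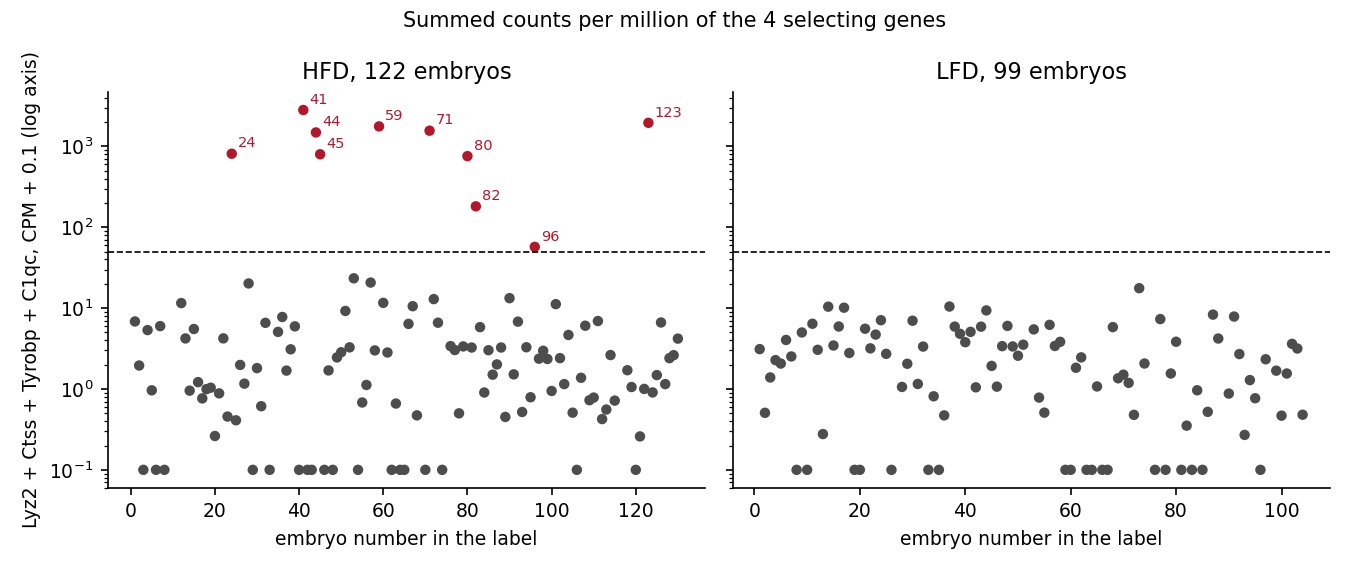
Sum of Lyz2, Ctss, Tyrobp and C1qc in each embryo by diet, in CPM on a log axis, with the limit of 50 as a line. The 10 members reach from 57.2 to 2824, and the highest embryo below the limit stands at 23.3.

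The 4 transcripts did not contribute alike. Among the members Lyz2 ran from 27.4 to 1790 CPM (median 744) and Ctss from 29.4 to 816 CPM (median 393), while Tyrobp ran from 0.354 to 162 CPM (median 44.2) and C1qc from 0 to 116 CPM (median 30.9). HFD-96 owed its place to Lyz2 and Ctss alone, with 2 counts of Tyrobp and 0 of C1qc. Of the HFD embryos below 50 CPM, 67 had a count of Lyz2 and 59 a count of Ctss, but only 2 had a count of Tyrobp and 1 a count of C1qc. Low Lyz2 and Ctss counts were thus common in embryos of either diet, and Tyrobp and C1qc were rare outside the members. In the LFD embryos the numbers with a count were 57, 58, 1 and 0 of 99 for the same genes. On GRCm38, the build of the count table, Lyz2 lies at chr10:117277331-117282321 (minus strand), Ctss at chr3:95526786-95556403 (plus), Tyrobp at chr7:30413760-30417585 (plus) and C1qc at chr4:136889804-136893065 (minus).

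The name given to these embryos was checked against 12 other macrophage markers (Csf1r, Adgre1, Cd68, Fcer1g, C1qa, C1qb, Laptm5, Cd14, Mpeg1, Ptprc, Aif1 and Fcgr3). Of these, 10 stood above the highest HFD embryo below 50 CPM in HFD-45 and HFD-123, 9 in HFD-59 and HFD-71, 8 in HFD-41 and HFD-44, 7 in HFD-80, 5 in HFD-24 and 3 in HFD-82. In HFD-96 none of the 12 did, and 8 of them had a count, against a median of 6 and a highest of 9 in the HFD embryos below the limit. Thus 9 of the 10 members carried at least 3 of these markers above the other HFD embryos. HFD-96 carried none of the 12 at that level, although other genes such as Apoe and Cybb were above the other HFD embryos there. LFD embryos did not enter these counts, and for C1qb they reached 47.3 CPM against 42.6 CPM in the other HFD embryos.

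Across the genome, 19120 genes were expressed highly enough to test, with the 4 defining genes left out. The quasi-likelihood test of edgeR called 401 of them (2.1%) between the members and the other HFD embryos, with 306 higher in the members (1.6%) and 95 lower (0.497%), at a false discovery rate of 0.05. Because the groups were chosen from macrophage transcripts of these same libraries, the differences of macrophage-type genes are given as a description and without p-values. Genes nearly absent elsewhere entered the test through the members, so the number of higher genes is a description too. Of 199 genes in 15 lists of macrophage-type functions, 154 were tested, 74 were among the higher genes and 0 among the lower, and the other 45 were too sparse to test. The median log2 fold change over all genes tested was -0.03. Leaving out each member in turn gave between 246 and 347 higher genes, and without HFD-96 there were 334 higher and 97 lower.

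The 306 genes were seldom cleanly separated. For 80 of them the median of the members lay above the highest of the other HFD embryos, and for 33.99% every member lay above the median of those embryos. For 3 genes all 10 members lay above the highest HFD embryo below 50 CPM. These were Apoe, Ctsb and Sgpl1, the sphingosine-1-phosphate lyase. Sgpl1 ran from 15.7 to 44.5 CPM in the members and did not pass 14.9 CPM in the other HFD embryos (log2 fold change 2.93, SE 0.47). LFD embryos reached 30.98 CPM of Sgpl1 and 264 CPM of Ctsb, within the range of the members. The 306 genes and the 4 defining genes together held from 0.79% of all counts in HFD-96 to 3.13% in HFD-41, against a median of 0.474% and a highest of 1.03% in the other HFD embryos. The excess over that median came to between 0.316 and 2.66% of a library. By itself, the largest excess, in HFD-41, lowers the share of every other gene by 0.039 on the log2 scale. Extra RNA of genes that were not called is not included, so the full effect could be larger.

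**Figure D2:**
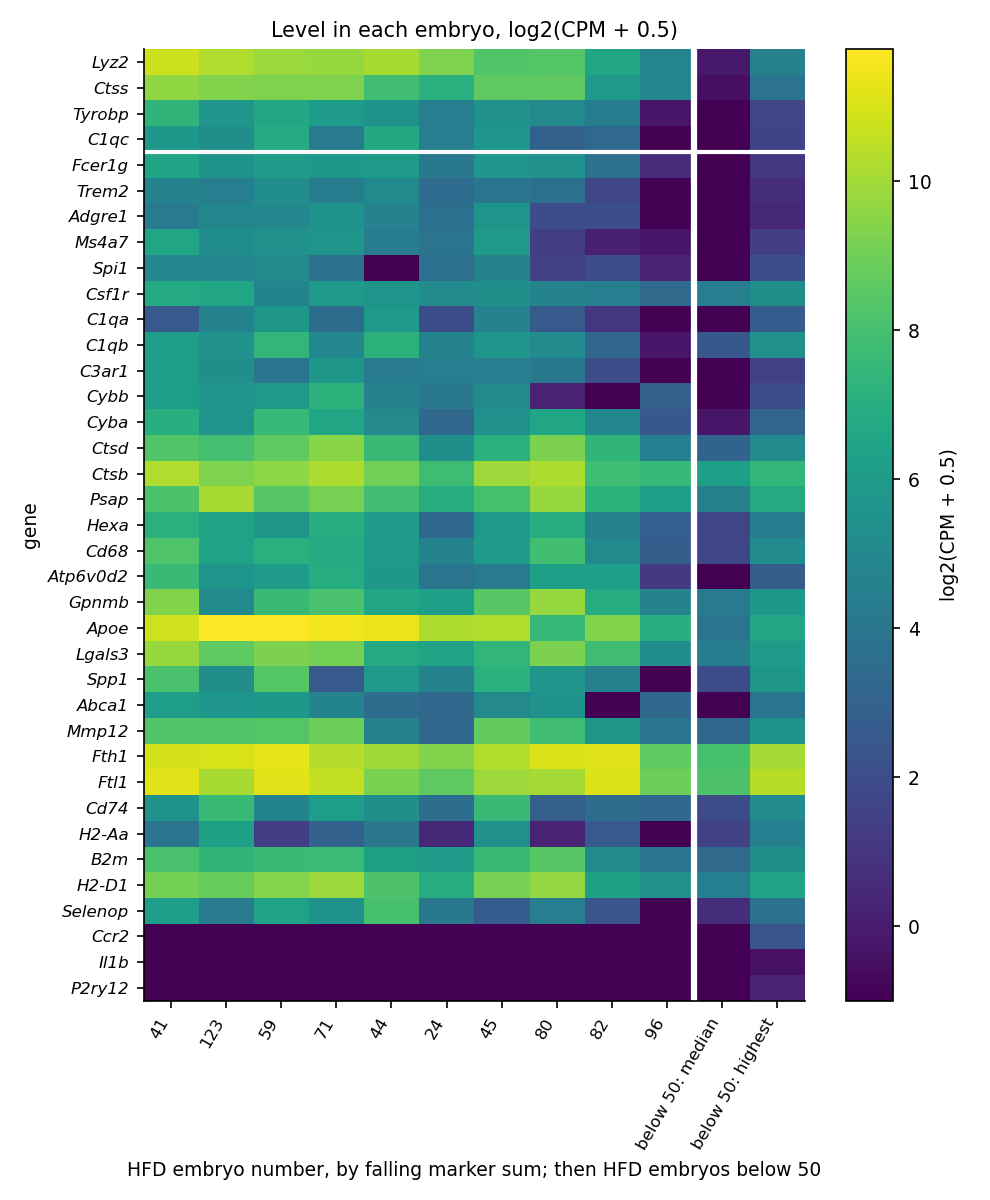
Level of macrophage-type genes in each of the 10 members, as CPM on a log2 scale, with the HFD embryos below 50 for comparison. Apoe spans 126.5 to 3494 in the members and does not pass 94.1 in the others.

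Genes of lipid handling separated the groups most often by their sum, which lay above the highest other HFD embryo (577 CPM) in 9 of 10 members. Apoe, the apolipoprotein that carries cholesterol out of macrophages, stood at 3494, 3397, 2979, 2658 and 1822 CPM in HFD-59, HFD-123, HFD-71, HFD-44 and HFD-41, at 1266 and 1169 CPM in HFD-45 and HFD-24, and at 646, 184 and 126.5 CPM in HFD-82, HFD-80 and HFD-96. Every member lay above the other HFD embryos, whose median was 14.7 CPM and highest 94.1 CPM, and above the LFD embryos, whose highest was 60.9 CPM (log2 fold change 6.44, SE 0.24). On GRCm38 Apoe is at chr7:19696109-19699188. In this list 10 of 16 tested genes were higher, with a median log2 fold change of 1.52 against -0.03 over all genes. They included Lgals3, a galectin of phagocytes (3.87, SE 0.19), Abca1, the cholesterol exporter (5.92, SE 0.58), Pltp, a phospholipid transfer protein (3.56, SE 0.23), and the lipid droplet protein Plin2 (1.97, SE 0.28). HFD-80 was unusual in this list, since its Lgals3 reached 599 CPM while its Apoe was among the lowest. Spp1, which encodes osteopontin, ran from 0 CPM in HFD-96 and 5.33 in HFD-71 to 340 CPM in HFD-59. Fabp5, Acsl1 and Scarb1 of the same list, with reads in nearly all embryos, stood at 0.18, -0.05 and 0.00 (SE 0.26, 0.17 and 0.21).

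Lysosomal enzymes were the list with the most higher genes. Of 24 cathepsins and hydrolases 18 were higher and 0 lower, with a median log2 fold change of 1.95. Their summed level ran from 1499 to 5465 CPM in the members (median 3359), against a median of 1210 and a highest of 2023 CPM in the other HFD embryos, and 8 of 10 members lay above that highest value. Ctsd, the aspartic protease cathepsin D, stood at 721, 614, 408, 320 and 246 CPM in HFD-71, HFD-80, HFD-59, HFD-41 and HFD-123, at 197, 164 and 141 CPM in HFD-44, HFD-82 and HFD-45, and at 40.5 and 22.7 CPM in HFD-24 and HFD-96. Only HFD-96 fell within the range of the other HFD embryos, which reached 32.7 CPM (log2 fold change 5.05, SE 0.20). Ctsb, the cysteine protease cathepsin B, ran from 190 to 1229 CPM and did not pass 177 CPM in the other HFD embryos (3.13, SE 0.22). An LFD embryo reached 264 CPM, above the lowest members. Psap, the precursor of the saposins that help degrade sphingolipids, was highest in HFD-123 and HFD-80 at 1079 and 891 CPM (3.93, SE 0.29). Ctsl differed by 0.59 (SE 0.17), while Ctsh and Ctsc stood at -0.01 (SE 0.20) and -0.49 (SE 0.36) and did not pass the test.

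Of the lysosomal membrane and proton pump genes, 6 of 17 were higher, with a median log2 fold change of 0.41. Cd68, a macrophage scavenger receptor of the lysosomal membrane at chr11:69664213-69666153, ran from 6.37 CPM in HFD-96 to 305 CPM in HFD-41 (4.71, SE 0.38). Atp6v0d2, a pump subunit of macrophages and osteoclasts, stood at 200 CPM in HFD-41, between 14.4 and 121.3 CPM in 8 members and at 1.77 CPM in HFD-96, against a median of 0 and a highest of 6.41 CPM in the others (7.33, SE 0.47). Gpnmb, a transmembrane glycoprotein of lipid-laden macrophages, was highest in HFD-80 and HFD-41 at 885 and 650 CPM and lowest in HFD-96 at 25.7 CPM (3.62, SE 0.21). The other 3 were Lamp1, Npc1 and Slc11a1. Outside the list, the general subunit Atp6v0b was also higher (0.78, SE 0.14), and reads of its antisense partner Gm12841 cannot be told from its own. The general pump subunits Atp6v1b2, Atp6v1h, Atp6v1a and Atp6v0d1, which all cells use, lay between -0.21 and 0.32 and did not pass the test.

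Receptors and adaptors of phagocytes were higher for 13 of 18 tested genes, with a median log2 fold change of 2.90. Their summed level was above the highest other HFD embryo (340 CPM) in 7 members. Mpeg1, the pore-forming protein perforin-2, differed by 7.11 (SE 0.53), Spi1, the myeloid transcription factor PU.1, by 6.01 (SE 0.55), the integrin chain Itgb2 by 4.72 (SE 0.54) and the lipopolysaccharide co-receptor Cd14 by 3.5 (SE 0.56). Csf1r, the receptor for macrophage colony-stimulating factor, had reads in both groups, with a median of 21.2 CPM below the limit and 37.5 CPM in the members (1.10, SE 0.21), and Fcgr3 stood at 178 against 127.1 CPM and did not pass the test (0.43, SE 0.20). The embryos below the limit thus also held reads assigned to both genes, and the groups overlapped.

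Several receptors were left out of the test by the filter on low counts, since they were at or near 0 in the other embryos. Fcer1g, the common chain of Fc receptors, ran from 1.06 to 87.4 CPM in the members and did not pass 1.57 CPM in the others. Trem2, a lipid receptor that signals through Tyrobp, ran from 0 to 38.4 CPM, with a count in 9 members and in 4 others (highest 1.12 CPM). Adgre1, the F4/80 antigen, had a count in 9 members, up to 48.9 CPM, and in 2 others, up to 0.851 CPM. Ms4a7, a membrane protein of macrophages, reached 90.05 CPM in HFD-41 but only 1.96 CPM in HFD-80. These values are given without a test, since a filter that lets such genes in does so through the members. Some tested genes also passed the default filter largely through the members, so their fold changes are descriptions only. C3ar1 had a count in 9 members and 2 other HFD embryos, Rac2 in 9 and 1, and Mpeg1 in 10 and 3.

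Complement genes were higher for 5 of 6 tested genes, with a median log2 fold change of 3.63. C1qb, a chain of C1q, stood at 167 and 146 CPM in HFD-59 and HFD-44, between 25.3 and 69.9 CPM in 6 members, at 8.63 CPM in HFD-82 and at 0.354 CPM in HFD-96. Its highest value in the other HFD embryos was 42.6 CPM, so the groups overlapped (3.0, SE 0.40). C3ar1, the receptor for the anaphylatoxin C3a, had the largest fold change of the named genes that passed the default filter, at 9.18 (SE 0.36), with 3.70 to 68.5 CPM in 9 members, 0 in HFD-96 and at most 2.19 CPM in the others. C3 itself was uneven, with a median of 1.09 and a highest of 47.1 CPM in the members.

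The promoters of 2 defining genes and of 2 lysosomal genes are printed as examples that hold the short motifs bound by PU.1 and by the lysosomal regulator TFEB, and were picked for holding them. Each runs from 250 bases before to 50 bases after the RefSeq start on GRCm38.p6, read 5′ to 3′ on the strand of the gene. The windows are chr3:95526536-95526835 (plus) for Ctss, chr4:136892865-136893164 (minus) for C1qc, chr11:69666121-69666420 (minus) for Cd68 and chr7:142387778-142388077 (minus) for Ctsd. Capitals mark the PU box GAGGAA or its reverse complement TTCCTC in the windows of Ctss, C1qc and Cd68, and TCACGTGA, the core of the CLEAR element, in that of Ctsd.
Ctss: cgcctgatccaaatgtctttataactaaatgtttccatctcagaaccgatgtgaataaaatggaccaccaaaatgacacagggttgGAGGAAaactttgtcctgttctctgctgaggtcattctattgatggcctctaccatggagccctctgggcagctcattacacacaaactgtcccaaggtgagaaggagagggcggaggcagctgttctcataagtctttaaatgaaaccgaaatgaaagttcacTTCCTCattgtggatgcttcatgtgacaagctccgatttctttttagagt
C1qc: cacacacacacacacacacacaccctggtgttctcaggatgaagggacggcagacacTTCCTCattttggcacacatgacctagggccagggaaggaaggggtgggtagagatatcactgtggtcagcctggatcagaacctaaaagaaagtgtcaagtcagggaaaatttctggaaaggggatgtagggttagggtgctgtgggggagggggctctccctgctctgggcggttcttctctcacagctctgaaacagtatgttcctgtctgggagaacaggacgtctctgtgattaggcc
Cd68: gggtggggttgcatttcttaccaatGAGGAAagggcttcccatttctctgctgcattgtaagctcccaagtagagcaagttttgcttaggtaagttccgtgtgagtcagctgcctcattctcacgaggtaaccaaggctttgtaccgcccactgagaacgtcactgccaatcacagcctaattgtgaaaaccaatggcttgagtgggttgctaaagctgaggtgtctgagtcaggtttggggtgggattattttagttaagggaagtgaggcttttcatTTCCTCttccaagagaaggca
Ctsd: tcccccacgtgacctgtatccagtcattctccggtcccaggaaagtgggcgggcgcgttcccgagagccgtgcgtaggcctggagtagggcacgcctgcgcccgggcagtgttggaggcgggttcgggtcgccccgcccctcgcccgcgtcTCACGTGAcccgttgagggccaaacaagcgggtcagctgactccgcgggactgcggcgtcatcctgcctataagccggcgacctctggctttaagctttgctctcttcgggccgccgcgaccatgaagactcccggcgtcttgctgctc
Searched on both strands, GAGGAA occurred in 17 of the 26 receptor, complement and defining genes whose promoter was at hand (65.4%, of 43 genes in these lists), in 33.2% of the higher and 35.2% of the lower genes with a promoter, in 26.5% of the tested genes and in 28.3% of 27025 promoters of the same length. TCACGTGA, its own reverse complement, occurred in 5 of 31 lysosomal promoters (16.1%, of 41 genes). Its share was 1.33% of higher and 3.70% of lower genes with a promoter, 1.62% of tested genes and 1.01% of all. Neither motif occurred in the windows of Lyz2, Fcer1g, Hexa, Gpnmb or Cyba. These are matches of letters and were not tested.

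Genes of antigen presentation split the members. MHC class I genes were higher for 3 of 6, with a median log2 fold change of 1.43. Of these H2-D1, a classical heavy chain, ran from 43.5 to 919 CPM (4.31, SE 0.28) and B2m, the light chain, from 15.9 to 346 CPM (3.81, SE 0.23), and for both the members except HFD-82 and HFD-96 lay above the other HFD embryos. MHC class II genes were higher for 4 of 6, with a median of 2.33. Cd74, the invariant chain, stood at 202 CPM in both HFD-45 and HFD-123, at 26.7 to 70.5 CPM in HFD-71, HFD-41, HFD-44 and HFD-59, and at 6.70 to 11.8 CPM in HFD-24, HFD-82, HFD-96 and HFD-80 (3.26, SE 0.48). The other HFD embryos reached 35.8 CPM, so only 5 members lay above them. The class II chain H2-Aa followed the same order at its top, with 76.8 and 42.7 CPM in HFD-123 and HFD-45, and it was no longer called without HFD-123 (log2 fold change 1.70 instead of 2.48).

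The members also carried genes of the oxidative burst and of the leukocyte cytoskeleton. Cybb, the catalytic subunit of the phagocyte NADPH oxidase, stood at 148 CPM in HFD-71, between 16.5 and 67.7 CPM in 6 members, and at 6.72, 0.654 and 0 CPM in HFD-96, HFD-80 and HFD-82. The others did not pass 3.42 CPM (6.74, SE 0.53). Cyba, its smaller membrane subunit, was present in all 10 members from 5.31 to 186 CPM (6.23, SE 0.43). Of 16 genes of the actin cytoskeleton 5 were higher, with a median of 0.45, among them the haematopoietic GTPase Rac2 (7.84, SE 0.42), the capping protein Capg (7.35, SE 0.53) and thymosin beta 4, Tmsb4x (3.02, SE 0.41). Actb, the beta actin of all cells, was higher by a smaller amount, with medians of 400 and 252 CPM (0.85, SE 0.19), and all 10 members lay above the median of the others. Cfl1, Wdr1 and Arpc2 stood at 0.05, -0.06 and -0.22 and did not pass the test.

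Iron storage transcripts followed another order. Fth1, the ferritin heavy chain, ran from 396 to 2517 CPM and Ftl1, the light chain, from 388 to 2388 CPM (2.39, SE 0.14, and 1.94, SE 0.18). The other HFD embryos reached 1053 CPM of Fth1 and 1367 CPM of Ftl1, and 7 and 4 members lay above them. HFD-82, with the second lowest marker sum, held 2244 and 2126 CPM of the pair, close to the levels of HFD-59 and HFD-41. The excess over the median of the other HFD embryos, divided by the marker sum, was 10.9 for Fth1 and 10.1 for Ftl1 in HFD-82, where the medians of the members were 1.08 and 0.82. Of 7 genes of iron and heme handling 4 were higher, with a median of 1.08.

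Lists that separate kinds of macrophage were short, and are read beside the 1.6% of all genes that were higher. Of 10 tested genes of resident macrophages, 2 were higher, Selenop (4.52, SE 0.50) and Gas6 (2.27, SE 0.44), while Mrc1, the mannose receptor, Cd163, F13a1 and Timd4 did not pass the test, and Vsig4 had 0 counts in all members. Selenop, a selenium transport protein, was highest in HFD-44 at 262 CPM. None of the 3 tested monocyte genes was called, and Ccr2 and S100a4 had 0 counts in all members. None of 5 peritoneal macrophage genes and none of 4 microglia and osteoclast genes was called. Of 10 inflammatory mediators 3 were higher, the elastase Mmp12 (4.28, SE 0.31), the chemokine Ccl6 (3.5, SE 0.67) and Tnfaip2 (6.10, SE 0.57), and the cytokine genes Il1b and Cxcl2 had 0 counts in all members. Of 6 interferon-induced genes only Oas1a was higher. Mmp12 ran from 9.58 CPM in HFD-24 to 496 CPM in HFD-71, and only 7 members passed the highest other embryo.

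**Figure D3:**
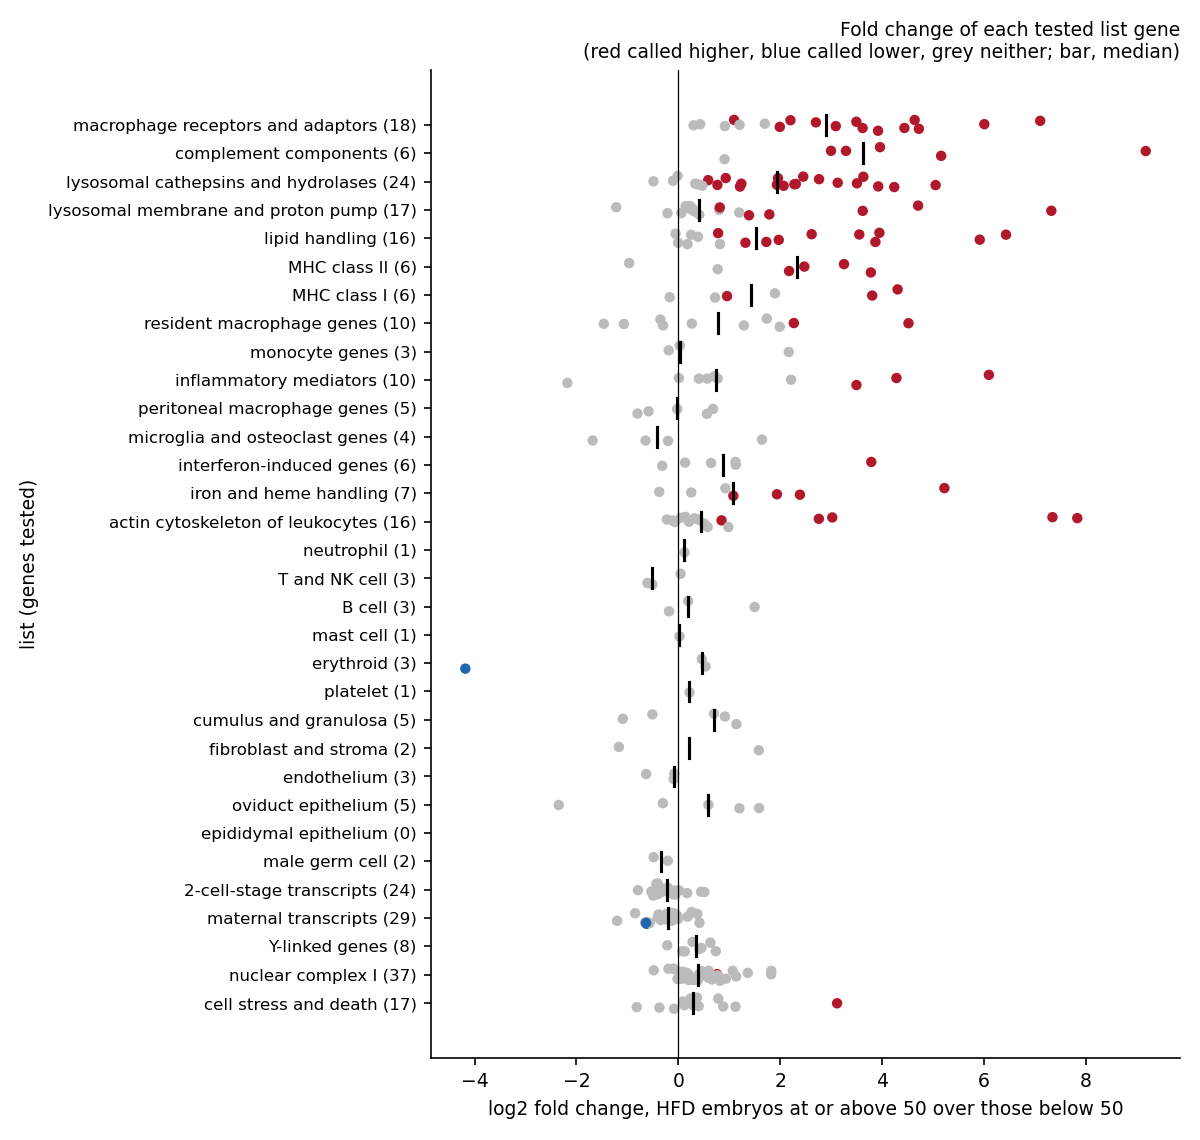
Log2 fold change, members against HFD embryos below 50, of each tested gene by list, with the median of each list. The medians are 3.63 for complement and 2.90 for receptors, 0.03 for monocyte and -0.02 for peritoneal macrophage genes, and -0.42 for microglia and osteoclast genes, beside -0.03 over all genes.

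Markers of the other cell types a tube could hold were not called higher, and Alas2, a heme synthesis gene of red cells with 0 counts in 9 members, was lower. This held for the tested genes of neutrophils, T and NK cells, B cells, mast cells, red cells, platelets, cumulus and granulosa cells, fibroblasts, endothelium, oviduct epithelium and male germ cells, though many had only 1 to 5 genes that could be tested, and none of the epididymal genes could be. The neutrophil sum was at most 3.92 CPM in a member, with S100a9 and Retnlg at 0, and the T and NK sum at most 12.2 CPM, with Cd3e, Cd3g and Nkg7 at 0. The cumulus and granulosa sum ran from 22.9 to 49.6 CPM in the members (median 29.2), against a median of 17.9 and a highest of 68.9 CPM in the others, so that all 10 members lay above that median and none above that highest value. Ptx3 and Foxl2 of this list were at 0 in all members. The platelet sum was above the highest other HFD embryo (9.09 CPM) in 5 members. Of this list Pf4, a chemokine that some macrophages also make, reached 30.4 CPM in HFD-71 and 1.21 CPM in the others, while in HFD-24 the sum came from the integrin gene Itga2b alone, at 11.8 CPM. The part of these cells in the differences was not tested.

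Outside the lists, 230 further genes were higher. Cst3, the secreted cathepsin inhibitor cystatin C, ran from 4.60 to 200 CPM (5.21, SE 0.42), Anxa1, an anti-inflammatory annexin, from 0 to 37.1 CPM (5.66, SE 0.61) and Timp2, an inhibitor of matrix proteases, from 0 to 31.4 CPM (6.07, SE 0.57). These and other genes named outside the lists were chosen after their values were seen. Of 76 genes of cytosolic ribosomal proteins, 12 were called higher (1.6% over all genes tested), from 0.59 for Rps9 to 1.26 for Rps27, and 41 of the 306 genes differed by less than 2-fold. For 29 of the 306 an overlapping gene on the other strand was also higher, such as Tmem140 and Cyren (3.90, SE 0.49, and 3.55, SE 0.51), and Smart-seq2 keeps no strand, so the reads of such a pair cannot be told apart.

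The members differed from each other in which genes led. HFD-41, HFD-59 and HFD-71 had high levels in most groups. HFD-44 stood out for C1q and Selenop and had 0 counts of Spi1. HFD-45 and HFD-123 had the highest MHC class II sums, at 287 and 392 CPM against 26.01 to 127.2 CPM in the other 8. HFD-80 had the highest cathepsin sum, 5465 CPM, with low Apoe, Cybb and Ms4a7. HFD-82 had high ferritin and Atp6v0d2 with 0 counts of Cybb. HFD-96 lacked C3ar1, Trem2, Adgre1 and C1qa. Embryos are single libraries, so these differences between them have no replicate.

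Over the 95 lower genes the median log2 fold change was -1.03, and 49 lay beyond -1. Of the 95, 17 had 0 counts in all members and 27 had a mean under 8 CPM in the other HFD embryos. For 44 of them every member lay under the median of the other HFD embryos, and for 19 a member lay under their lowest embryo. The number depended on single embryos, with 45, 46, 49 and 61 lower genes left when HFD-44, HFD-59, HFD-82 or HFD-71 was left out. Of the 12 named because they fell most at a mean level of at least 8 CPM, 6 kept their call whichever member was left out, and 3 of these, Gm5435, Rpa3 and Zfp51, did so under every alternative tried.

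Gm5435, a predicted gene, stood between 5.66 and 201 CPM in the members (median 40.1), with a median of 253 CPM in the others (log2 fold change -2.21, SE 0.55, adjusted p = 0.00924). Rpa3, the small subunit of the single-strand DNA binding protein RPA, ran from 8.49 to 51.97 CPM (median 26.7), with a median of 54.2 CPM in the others (-1.36, SE 0.34, adjusted p = 0.00678). Zfp51, a zinc finger gene, ran from 5.26 to 65.1 CPM, with a median of 42.3 against 75.9 CPM (-1.26, SE 0.32, adjusted p = 0.0101). In all 3 the groups overlapped, and for Rpa3 2 members, HFD-59 and HFD-44, lay under the lowest of the other HFD embryos (10.5 CPM). Crabp2, a retinoic acid binding protein, had medians of 28.7 and 75.7 CPM (-1.96, SE 0.43), and AU022751, an X-linked gene, 1003 and 2559 CPM (-1.35, SE 0.31). Both lost their call in limma-voom. Tacr3, a tachykinin receptor, had medians of 1.53 and 32.1 CPM (-2.42, SE 0.68), and lost its call when any of 8 members was left out.

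**Figure D4:**
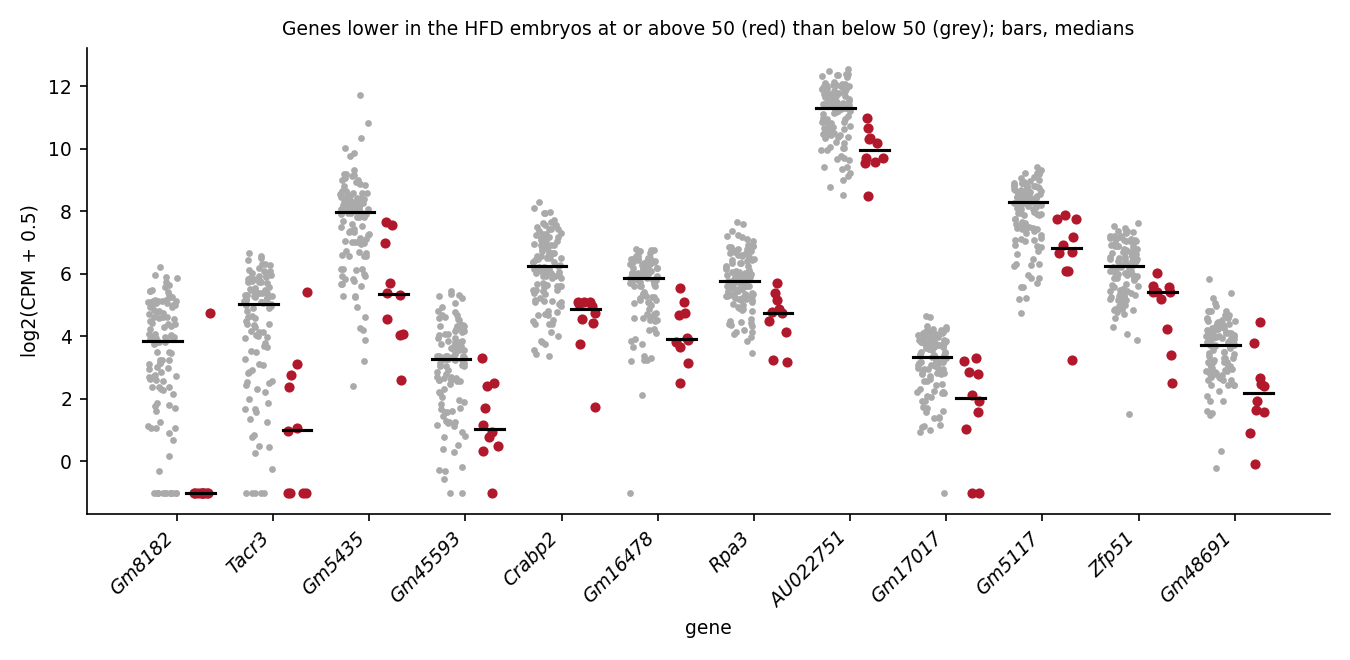
Level of lower genes in each HFD embryo, as CPM on a log2 scale, with members and embryos below 50 side by side. For Gm5435 the medians are 40.1 and 253, and the 2 groups overlap in every gene shown.

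Genes with roles in the embryo were described by the same counts. None of 24 tested 2-cell-stage transcripts was called (median log2 fold change -0.23), and 2 of 29 maternal transcripts were lower (median -0.21), where 0.497% of all genes tested were lower. Dppa3, a maternal factor that guards methylation in the zygote, ran from 1620 to 3534 CPM in the members and from 1763 to 11442 CPM in the others (medians 2356 and 3261; -0.63, SE 0.18, adjusted p = 0.0334), and it lost its call when any of 7 members was left out. Of 37 nuclear genes of complex I, the first enzyme of the respiratory chain, Ndufa2 was higher, with medians of 54.9 and 32.3 CPM (0.76, SE 0.18, adjusted p = 0.00324). The median over the 37 genes was 0.39. None of 8 Y-linked genes was called, and the Y-linked sum ran from 0 to 141 CPM among the members, which thus included embryos with and without Y-linked transcripts.

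Summed measures of the embryos were compared by 2-sided permutation tests with 100000 draws, adjusted over 11 measures by Benjamini and Hochberg. Summed cytosolic ribosomal protein transcripts were 12.7 ± 0.30 in the members (SD, n = 10) and 12.3 ± 0.46 in the other HFD embryos (SD) on the scale log2(CPM + 0.5), a difference of 0.43 (p = 0.00488, adjusted p = 0.0480), and 9 of 10 members lay above the median of the others. The complex I sum differed by 0.27 (9.68 ± 0.33 against 9.41 ± 0.30, permutation p = 0.00973, adjusted p = 0.0480, 8 of 10). The sum of the 22 mitochondrial tRNAs differed by 0.42 (9.42 ± 0.59 against 8.99 ± 0.50, permutation p = 0.0131, adjusted p = 0.0480, 7 of 10). Without HFD-41, the member with the highest marker sum, the differences were 0.40, 0.19 and 0.34 and none of the 3 passed the threshold. In addition, the tRNA difference was 0.16 (permutation, adjusted p = 0.777) without mt-Ts1, a single tRNA gene. The ribosomal protein genes include 12 of the genes called higher above, and the complex I genes include Ndufa2. Neither sum is thus separate from that comparison.

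The other 8 measures did not pass the test. The members lay lower by 0.18 in 2-cell-stage transcripts and by 0.14 in maternal transcripts (permutation, adjusted p = 0.186 for both, 2 of 10 members above the median of the others in each). Mitochondrial mRNAs differed by 0.09 and mitochondrial rRNAs by 0.05, and the ratio of 2-cell-stage to maternal transcripts by -0.04. Detected genes were 18841 on average in the members and 18470 in the others, but the medians were in the opposite order, at 18446 and 18950.

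Since all 10 members belonged to the HFD group, the comparison of the diets was made with them and without them. Without them, 97 of 14650 tested genes were higher in HFD (0.662%) and 0.833% were lower. With all embryos there were 318 called genes of 14820 tested, 186 higher and 132 lower (0.891%). The shares of lower genes were thus close, and those of higher genes were not. The fits share 211 of their embryos, so their values are set side by side without a test between them.

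Of the 306 genes higher in the members, 162 could be tested by diet both ways. Their median log2 fold change between diets was 0.29 with all embryos and 0.02 without the members, where the medians over all genes were 0.01 and 0.00, and 27 and 2 of them were called higher in HFD. These genes were picked for being higher in the members, and every member was an HFD embryo. Leaving the members out was thus bound to lower the difference between diets, so the fall tests nothing. The values without the members only describe the other HFD embryos against the LFD embryos. Apoe differed by 3.23 (SE 0.34) with all embryos and by 0.19 (SE 0.15, adjusted p = 0.702) without the members. Ctsd stood at 1.87 and -0.01, Mmp12 at 1.33 and -0.02, Lgals3 at 1.27 and 0.17, H2-D1 at 1.25 and -0.11, and Gpnmb at 1.02 and 0.06. The 2 genes called either way were Malat1, an abundant nuclear RNA, at 0.92 and 0.53 (adjusted p = 0.0313 without the members), and Gm37376 at 1.05 and 0.63. Malat1 and Gm37376 overlap on opposite strands, so their reads cannot be told apart and they do not count as 2 separate signals.

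Of the genes higher in HFD with all embryos, 89 were not called without the members, 3 of them no longer tested, and 27 of the 89 were among the 306. Genes named because they were called without the members had similar values in both fits. The mitochondrial rRNA gene mt-Rnr1 stood at 0.73 with all embryos and 0.74 without the members, the tRNA genes mt-Tm at 1.02 and 0.998, and mt-Tq at 0.87 and 0.81. Among genes lower in HFD, the RNA-binding protein gene Zfp36l2 stood at -0.52 and -0.57 and Pnrc1 at -0.54 and -0.58. All of these were called without the members.

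**Figure D5:**
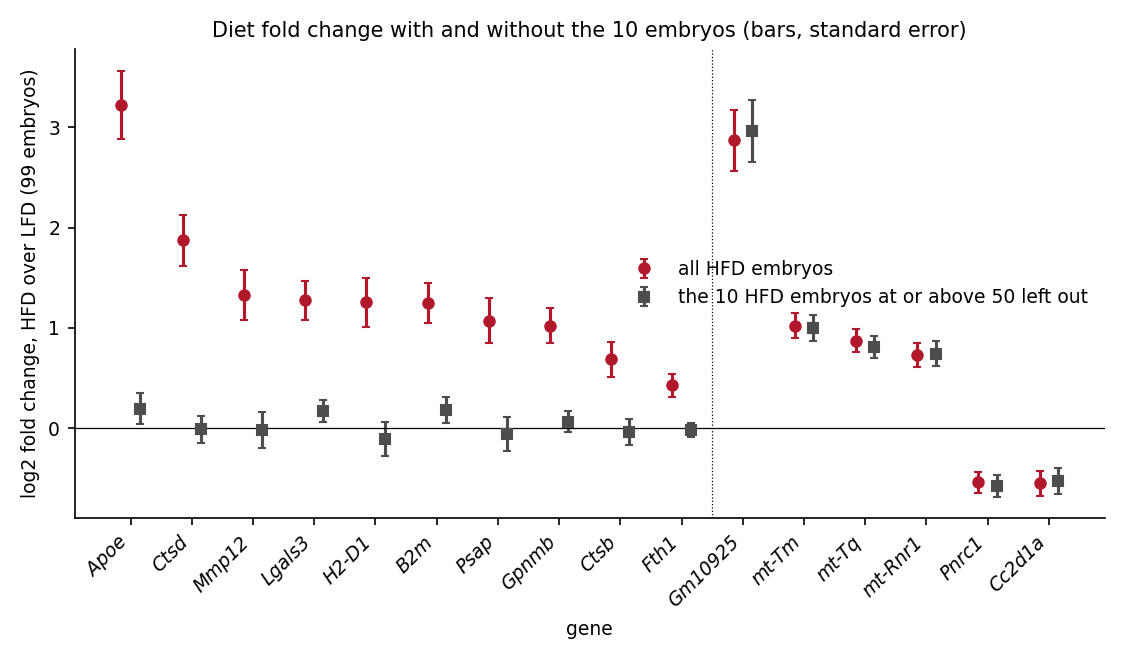
Log2 fold change of HFD against LFD with its standard error for named genes, with all embryos and without the 10 members. Apoe stands at 3.23 with all embryos and 0.19 without the members, and mt-Rnr1 at 0.73 and 0.74.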

How the data were processed

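The members and gene lists were chosen with earlier results of these data known. The authors trimmed reads with Trim Galore 0.6.6, aligned them to GRCm38 (with Staudach mitochondrial sequence, according to the methods) with STAR 2.7.10a and counted them with featureCounts 2.0.3. The deposited table holds raw read counts for 55291 genes, counted over exons with strand setting 2, although Smart-seq2 marks no strand, so reads of a gene and of an antisense partner cannot be told apart. No other unit was used.

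CPM were taken over all counts of an embryo. Genes passing edgeR's default filter were tested with edgeR 4.0.16 (TMM scaling, quasi-likelihood F test, Benjamini-Hochberg adjustment, threshold 0.05), and the SE of a log2 fold change was derived from F. The test recovered known changes in simulated counts, where each changed gene was expressed in the other embryos and shifted alike in all members. Genes near 0 elsewhere and uneven between members are unlike that setting, so the simulation says nothing on their calls. Embryos were the replicates, so p-values take no account of shared sires. Genes set to be named were the 12 with the largest change in each direction at a mean of at least 8 CPM. To these came up to 3 by level in each list, and the list members and marker genes. Not all of them are printed, and other genes were chosen after their values were seen. Alternatives covered scaling, filter, test, threshold, covariates and each member left out.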

Additional observations from a re-analysis of the deposited data

Results flagged for a closer look

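Among 94 values per embryo examined within the 10 members, 10 had 1 embryo far from the other 9 by Dixon's criterion (gap over range above 0.466). Chance gives about 1 in 20, but many of the values belong to the defining genes or to genes called between these groups. The number of flags is thus a description only. In HFD-41, Gm8182 stood at 26.4 CPM while the other 9 members had 0 counts, the nuclear complex I sum was the highest at 1344 CPM, and the mast cell sum was the lowest at 85.1 CPM. In HFD-59, Crabp2 and Gm5117 were the lowest at 2.83 and 8.89 CPM, and the endothelium sum was the highest at 171 CPM. HFD-96 was lowest in 2 of the defining genes, Tyrobp at 0.354 CPM and C1qc at 0 CPM, values that also entered the choice of the members. HFD-123 alone had counts of Alas2, at 0.0760 CPM, and HFD-82 alone had counts of epididymal genes, at 0.616 CPM, so both of these rest on a handful of reads.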

How the results depend on the processing

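No paired analysis was possible because embryo numbers in the labels only name embryos and the comparison lies within HFD. The planned LFD version was not run, since 0 LFD embryos reached 50 CPM. A limit of 25 CPM selected the same 10 embryos. The cause of the shifts below was not tested except where the setting itself tests other genes or fewer embryos.

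The 401 genes called became 3995 without a filter on low counts and 612 with 10 counts in at least 5 embryos, a setting added after the data were seen, like leaving out each member (292 to 447). Higher genes were 533 by limma-voom, 2471 without a filter, 463 with the looser filter and 246 to 347 with a member left out. Lower genes, 0.497% of those tested, were 0.871% by DESeq2, 3.53% without a filter, 0.680% with the looser filter, 0.974% with both diets, 0.952% without embryos under 16000 detected genes, and 0.232 to 0.644% with a member left out. By diet without the members, no filter gave 6293 genes, 4124 higher and 4.81% lower, and with all embryos kept 186 were higher.

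All 50 named calls kept their direction, and 40 were kept with every single member left out. Those that lost the threshold were mostly lower genes. H2-Aa and H2-Ab1 lost it without HFD-123, Gm5117 without HFD-59, and Mpeg1 and Rac2 in DESeq2.

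The mitochondrial tRNA difference was 0.45 over nuclear counts, 0.39 within number ranges, 0.49 at a limit of 100 CPM, 0.34 without the embryo of the highest marker sum and 0.16 without mt-Ts1. In the same settings but the last, complex I gave 0.29, 0.22, 0.27 and 0.19, and ribosomal proteins gave 0.32 within ranges, 0.39 at 100 CPM and 0.40 without the highest embryo. None of these passed the threshold. Differences near 0 turned sign: mitochondrial rRNA was -0.026 within ranges, the 2-cell to maternal ratio was 0.0096 without the highest embryo, and log2 total counts were 0.0076 within ranges and 0.0082 without the highest embryo. Members number 10, so small differences could not be detected.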

Other observations

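Some genes outside the lists differed as well and are given as values only. Malat1, a nuclear long noncoding RNA, had medians of 236 CPM in the members and 35.3 CPM in the other HFD embryos (log2 fold change 2.21, SE 0.30), with 657 CPM in the highest of the others. Xist, the RNA that coats the inactive X chromosome, had a count in all 10 members, from 1.77 to 22.04 CPM, against a median of 1.31 and a highest of 18.5 CPM in the other HFD embryos, and was not called by edgeR (log2 fold change 1.79, SE 0.63, adjusted p = 0.137). Both Xist and summed Y-linked transcripts above 40 CPM were present in HFD-41, HFD-45, HFD-59, HFD-71, HFD-80, HFD-96 and HFD-123. Of these, HFD-96 had the lowest Xist level of all members, at 1.77 CPM. Among the other HFD embryos, 75 had a count of Xist, and the median Y-linked sum was 42.4 CPM. How many of those embryos held both was not counted, so the values do not show whether the members differ in this. These genes were chosen after their values were seen.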
